A study of Homo sapiens with 8 samples.

Results

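Hypoxic KYSE150 cells given sodium oxamate were compared with the same line in normoxia, over all 15554 expressed genes of the 61517 listed. The comparison asks how far oxamate brings hypoxic cells to the normoxic state, and which genes stay apart from it. It uses 4 of the 8 libraries of the series, 2 of hypoxia with oxamate and 2 of normoxia, and the members are every gene with enough counts to be tested. KYSE150 is an established line of human esophageal squamous cell carcinoma. All cells were grown in RPMI-1640 with serum. The normoxia group had neither agent, the hypoxia group was kept in low oxygen with nothing added, and the hypoxia with oxamate group was kept in low oxygen with sodium oxamate. The fourth group, labelled hypoxia+oxamate+NALA, entered only the count filter, the scaling, the mean level per gene and the shared estimate of spread. With the 2 compared groups alone, 14468 genes had enough counts to be tested. The sources used here do not give the oxamate dose, oxygen level or exposure time. All libraries come from 1 cell line, and the labels do not say whether replicates were separate cultures, so p-values measure the spread between these samples, which may be technical. The 2 compared groups differ in both oxygen and agent, and the hypoxia group shows low oxygen without the agent. There was no group with oxamate in normoxia, so the effect of the agent apart from low oxygen cannot be told here.

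Oxamate resembles pyruvate and blocks lactate dehydrogenase, the enzyme that turns pyruvate into lactate while restoring the NAD+ that glycolysis needs. In low oxygen the prolyl hydroxylases (EGLN genes) and the asparaginyl hydroxylase HIF1AN lose activity, VHL no longer marks HIF-1α for degradation, and the stable protein pairs with ARNT and recruits the coactivators EP300 and CREBBP. The complex raises glucose transporters, glycolytic enzymes, VEGFA and CA9, and tumours with active HIF are known for high glucose use and lactate release. Carcinoma cells also carry CD274 (PD-L1), a ligand that restrains T cells.

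Levels are given in CPM, counts scaled to library size and composition, for replicate 1 and then replicate 2, gene positions are those of GENCODE 29 on GRCh38, and differences as log2 fold changes of hypoxia with oxamate over normoxia ± SE. A gene was called at an adjusted p under 0.05, and called close to normoxia where the 95% interval of its difference lay inside 1.5-fold in both directions. Libraries held 21845676 to 29406061 counts, and 3 counts correspond to 0.102 to 0.137 CPM of the total. Mitochondrial transcripts took 5.74 and 5.73% of counts in normoxia and 2.45 and 2.44% with oxamate, while the ribosomal protein list took 4.67 and 4.73% against 8.84 and 8.92%. Of 8 squamous markers, 7 were present in every library and SOX2 was near 0. Their sum was 2750 CPM of the total in both normoxia libraries and 4160 in both oxamate libraries. KRT5 made up most of it (1930 and 1930 against 3060 and 3070). KRT14, KRT6A, KRT17 and PERP were higher with oxamate too. TP63 (147 and 141 against 71.1 and 69.4) and DSG3 (52.8 and 51.9 against 29.5 and 31.5) were lower. Of 10 leukocyte markers, PTPRC, CD3D and NKG7 were at 0 in these 4 libraries and CD68 made up nearly all of the sum (39.9 and 44 CPM against 76.5 and 76.2). The 8 fibroblast markers summed to 3.45 to 3.59 CPM in normoxia and 1.94 to 2.2 with oxamate, and the 6 endothelial markers to 0.68 to 1.67 across these libraries.

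Oxamate-treated hypoxic cells did not return to the normoxic transcriptome. Of the tested genes, 11195 (72.0%) differed between hypoxia with oxamate and normoxia, 4957 higher (31.9%) and 6238 lower (40.1%). Differences of at least 2-fold were found for 1138 genes higher (7.32%) and 3147 lower (20.2%). For 4198 genes (27.0%) the level was close to normoxia. The libraries of the 2 groups did not overlap for 13259 genes (85.2%). The median log2 difference over all tested genes was -0.14, and the median absolute difference was 0.655, against 0.618 for hypoxia without oxamate over the same normoxia libraries. The root mean square difference in log2 CPM was 1.12 for each of the 4 pairs of a normoxia with an oxamate library. Pairs of normoxia with hypoxia libraries lay 1.13 to 1.14 apart, pairs of hypoxia with oxamate libraries 1.44, and replicates of these 3 groups 0.375 to 0.467. The treated cells were about as far from normoxia as untreated hypoxic cells were, and farther from hypoxia than from normoxia. When libraries were scaled by their totals alone, a setting added after the data were seen, the median moved by -0.388, list medians moved by about as much, and 75.5% of calls were lower, against 55.7%. Differences are therefore to be read against the median of all genes, and list counts against the 31.9% higher and 40.1% lower.

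**Figure D1:**
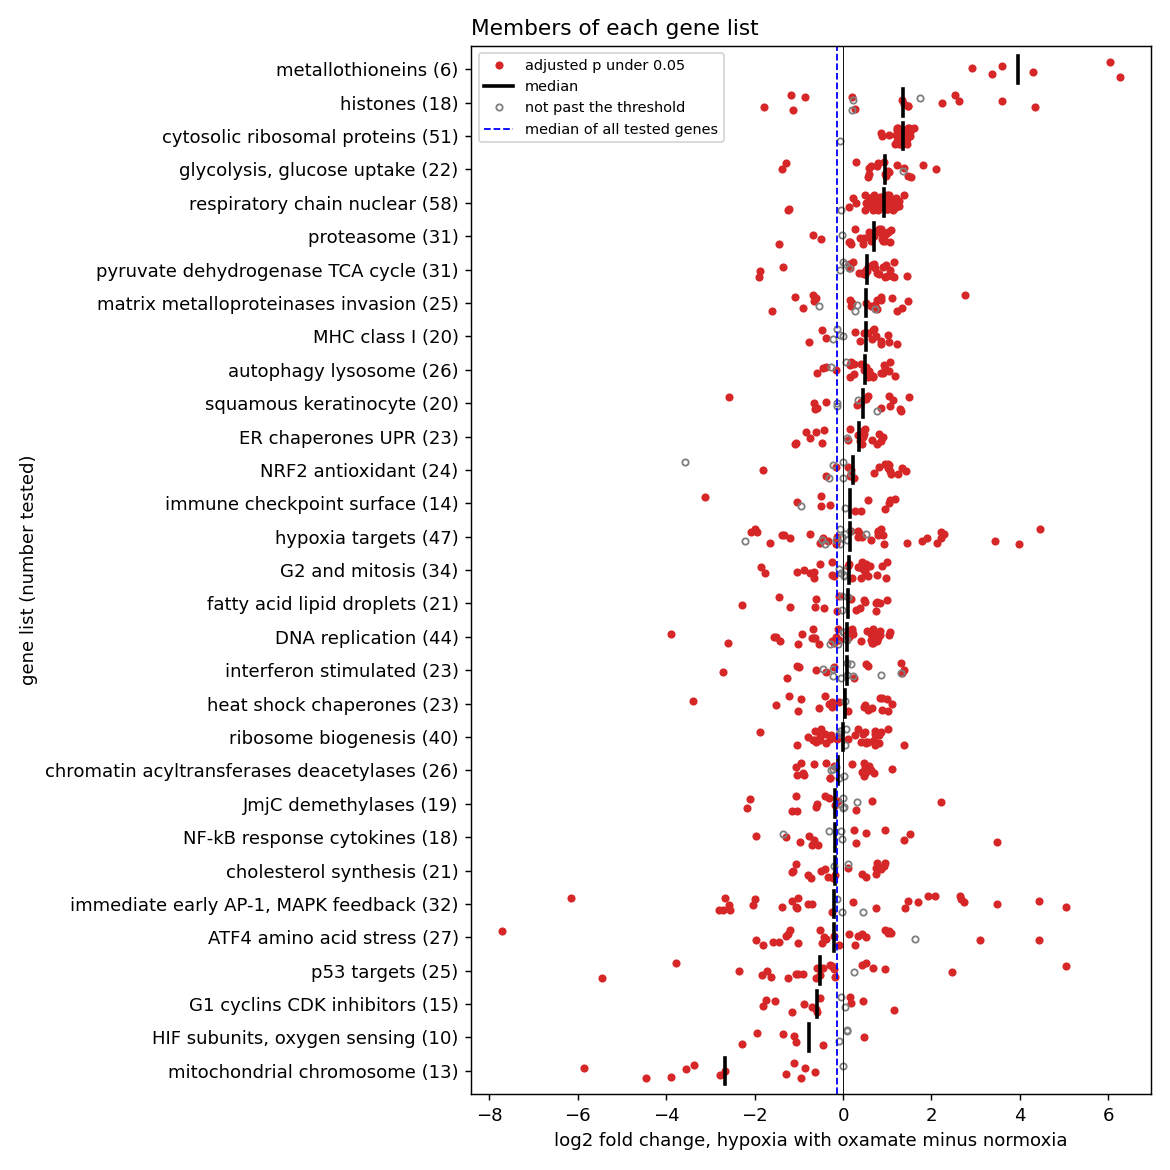
Log2 fold change of hypoxia with oxamate over normoxia (x axis) for the tested members of each gene list (y axis, number tested in brackets). Filled points passed an adjusted p of 0.05, black bars are list medians and the dashed line is the median of all tested genes (-0.14). Metallothioneins have the highest median (3.95) and transcripts of the mitochondrial chromosome the lowest (-2.67) of the lists plotted.

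Hypoxia targets fell into 3 kinds in treated cells: some stayed far above normoxia, some stood at its level, and some lay below it. Of 53 listed genes, 47 were tested; CA12, ANGPTL4, EGLN3, PPFIA4, NRN1 and TXNIP had too few counts. With oxamate 22 were higher than in normoxia, 14 were lower and 16 were close to it, beside 31.9, 40.1 and 27.0% of all tested genes. The number lower ran from 9 without oxamate replicate 1 to 23 with library totals alone. The median difference was 0.15, with values from -0.24 (library totals alone) to 0.24 over the alternatives and 0.080 without normoxia replicate 2, against 2.74 for hypoxia without oxamate, in which 44 were higher (36.7% of all tested genes were higher in that comparison). The hypoxia values share the normoxia libraries and are given side by side, without a test of likeness.

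BHLHE40, a transcriptional repressor, stood at 16.7 and 17.01 CPM in normoxia, 323 and 319 in hypoxia and 371 and 365 with oxamate. Its log2 difference from normoxia was 4.45 ± 0.04 (adjusted p = 1.6e-26), and the oxamate libraries were above both other groups. ADM (chr11:10304680-10307397, + strand), which encodes the vasodilator peptide adrenomedullin, stood at 46.5 and 48.1, 383 and 391 and 737 and 761 CPM, a difference of 3.98 ± 0.04. CITED2, which competes with HIF-1α for the coactivators, went from 37.5 and 38.3 CPM in normoxia to 94.0 and 92.7 in hypoxia and 179.9 and 176 with oxamate (2.23 ± 0.05). In these 3 genes the oxamate libraries were the highest of the 3 groups. Other targets stayed raised at a lower level than in hypoxia. NDRG1, a differentiation and stress gene, had 32.7 and 40.0 CPM in normoxia, 7382 and 7331 in hypoxia and 397 and 396 with oxamate (3.44 ± 0.07). The mTORC1 inhibitor DDIT4 had 61.8 and 68.0, 1818 and 1839 and 248 and 239 CPM (1.91 ± 0.04). The histone demethylase KDM3A (2.21 ± 0.05), the cyclin CCNG2 (2.13 ± 0.06) and the mitophagy receptor BNIP3 (1.78 ± 0.06) behaved the same way, with treated libraries between the other groups. ANKRD37 (2.29 ± 0.19), PDK1 (1.44 ± 0.05) and MXI1 (0.90 ± 0.08) were also higher than in normoxia.

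Other targets stood close to normoxia. HILPDA (chr7:128455849-128458418, + strand), which coats lipid droplets and blocks lipolysis, stood at 11.3 and 12.1 CPM in normoxia, 415 and 415 in hypoxia and 11.7 and 11.4 with oxamate. Its log2 difference from normoxia was -0.03 ± 0.07 with a 95% interval of -0.18 to 0.12, and the libraries of the 2 groups overlapped. CA9, the surface carbonic anhydrase IX, had 5.73 and 6.99, 243 and 248 and 8.71 and 7.40 CPM, a difference of 0.33 ± 0.12 (adjusted p = 0.015). The call for CA9 was lost without normoxia replicate 1 (0.19) or oxamate replicate 1 (0.31) and its sign turned with library totals alone (-0.05), and 38.5% of its exon bases overlap ARHGEF39 on the other strand. The oxidase ERO1A (-0.08 ± 0.04), the demethylase KDM4B (-0.07 ± 0.08) and EGFR (0.03 ± 0.03) were close to normoxia too, and EGFR passed the threshold under 8 of 12 alternatives, with values from -0.35 to 0.15. BNIP3L was called higher (0.35 ± 0.05) within 1.5-fold, a sign that turned with library totals alone (-0.04).

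Below normoxia were targets that hypoxia had also raised. KCTD11, an adaptor of a ubiquitin ligase, had 13.6 and 13.3 CPM in normoxia, 289 and 296 in hypoxia and 3.14 and 3.20 with oxamate, 4.24-fold lower than in normoxia (log2 -2.09 ± 0.10). VEGFA, the main growth factor of blood vessels, had 23.1 and 23.0, 82.3 and 81.6 and 15.1 and 17.3 CPM (-0.51 ± 0.07, adjusted p = 1.1e-06). INSIG2 (-1.64 ± 0.13), which holds back sterol synthesis, the lipoprotein receptor VLDLR (-1.19 ± 0.17) and the collagen lysyl hydroxylase PLOD2 (-0.74 ± 0.06) were lower as well. The treated libraries of these 5 genes lay under both normoxia libraries.

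**Figure D2:**
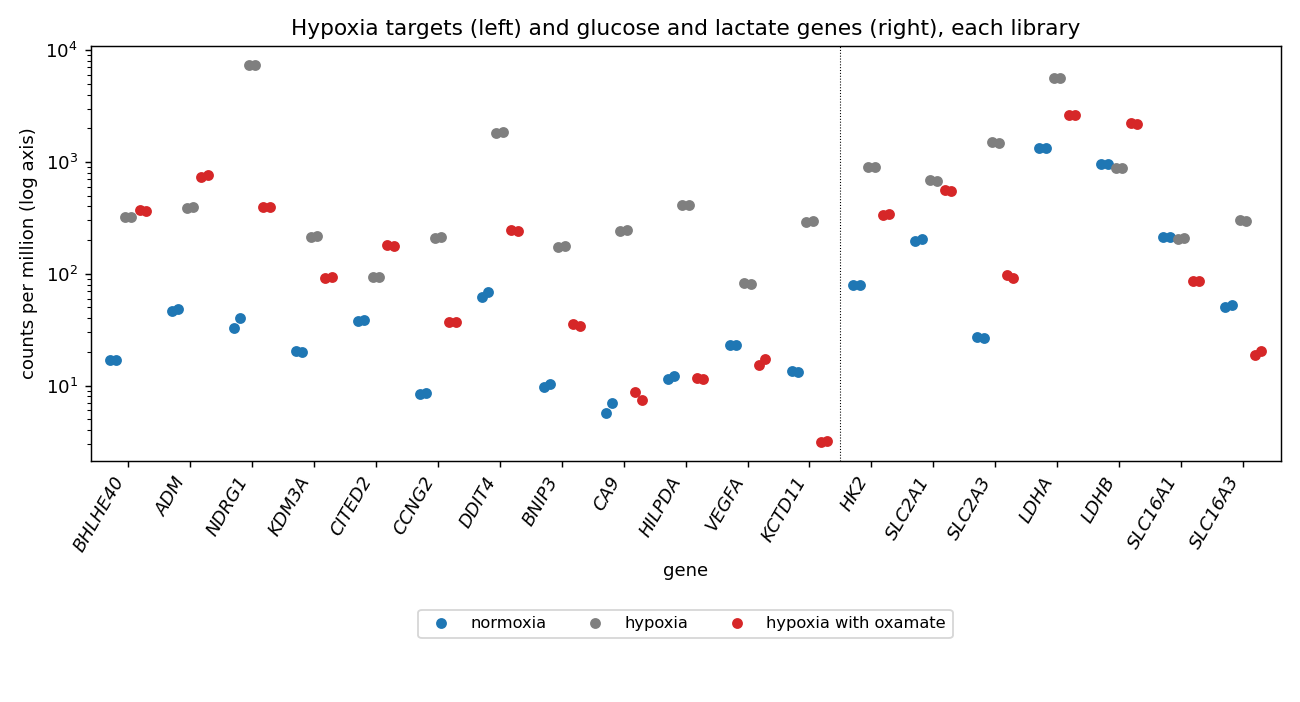
CPM on a log axis for 12 hypoxia targets and 7 genes of glucose and lactate handling (x axis), 2 libraries per group. Treated libraries lie above the normoxia libraries for BHLHE40 to BNIP3, near them for CA9 and HILPDA, and below them for VEGFA and KCTD11.

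A promoter of each kind is shown, because the 3 genes share a rise in hypoxia and part company with oxamate. The sequences are the 250 bases before the RefSeq start on GRCh38.p14. Capitals mark ACGTG or GCGTG on either strand, the core that HIF binds, and CACGTG counts as 2 overlapping matches.
BHLHE40 (chr3:4979187-4979436, + strand): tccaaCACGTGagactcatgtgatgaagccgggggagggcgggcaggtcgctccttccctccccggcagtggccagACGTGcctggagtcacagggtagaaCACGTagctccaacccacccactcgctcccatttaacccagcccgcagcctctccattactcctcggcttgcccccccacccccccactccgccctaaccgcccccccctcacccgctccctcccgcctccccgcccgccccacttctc
CA9 (chr9:35673678-35673927, + strand): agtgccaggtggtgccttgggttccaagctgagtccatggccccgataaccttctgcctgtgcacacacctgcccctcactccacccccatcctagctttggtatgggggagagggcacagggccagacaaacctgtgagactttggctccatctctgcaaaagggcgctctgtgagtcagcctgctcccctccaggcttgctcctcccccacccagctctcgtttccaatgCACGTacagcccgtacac
KCTD11 (chr17:7351912-7352161, + strand): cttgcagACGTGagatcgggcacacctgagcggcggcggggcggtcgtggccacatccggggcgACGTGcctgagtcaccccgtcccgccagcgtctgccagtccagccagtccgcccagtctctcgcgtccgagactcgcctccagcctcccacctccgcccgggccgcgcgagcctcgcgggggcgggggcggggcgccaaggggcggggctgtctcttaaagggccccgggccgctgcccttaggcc
BHLHE40 had 4 matches, CA9 had 1 and KCTD11 had 2. Such a match was present in 43.2% of 35116 promoter windows of this length and in 54.7% of the 15221 windows of tested genes. Counted by gene, in any window of the gene, 30 of the 37 tested hypoxia targets with a window had one. The 15221 windows belong to 10564 genes, so shares by window and by gene are unlike measures. A match is a description of the letters and not a site.

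Of 12 listed genes of HIF subunits and oxygen sensing 10 were tested. With oxamate 6 were lower (40.1% of all tested genes were), 1 was higher, 3 did not pass and 4 were close to normoxia. The median was -0.76, and -0.455 without oxamate replicate 2, against -0.03 for hypoxia without oxamate. HIF1AN, the hydroxylase that blocks the coactivator contact of HIF-1α, stood at 65.3 and 62.4 CPM in normoxia, 59.4 and 58.9 in hypoxia and 13.4 and 12.8 with oxamate (-2.28 ± 0.06). VHL, the ubiquitin ligase subunit, stood at 40.4 and 40.9, 30.9 and 29.3 and 10.2 and 11.04 CPM (-1.93 ± 0.07). In both genes the treated libraries lay below both other groups. EP300 (-1.07 ± 0.07), EGLN2 (-1.11 ± 0.07) and ARNT (-0.45 ± 0.07) were also lower, ARNT having 31.6 and 28.6 CPM in normoxia and 21.8 and 22.05 with oxamate. ARNT2 was lower as well (-1.36 ± 0.48) at a level under 1 CPM, a call that was lost without oxamate replicate 2 (-0.55) or normoxia replicate 2 (-1.29). HIF1A itself had 115 and 114 CPM in normoxia, 119 and 119 in hypoxia and 156 and 162 with oxamate, a difference of 0.47 ± 0.04 (adjusted p = 1e-10) that stayed within 1.5-fold. EGLN1 (0.08 ± 0.06), EPAS1 (0.08 ± 0.07) and CREBBP (-0.09 ± 0.05) did not pass. EGLN1 and EPAS1 fell on either side of 0 under the alternatives, from -0.30 to 0.21 and from -0.31 to 0.23, and passed under 6 and 5 of the 12. These are transcript levels, and the protein was not measured here.

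Most transcripts of glycolysis genes stayed above normoxia in treated cells, while 2 lactate carriers lay below it. Of 23 listed genes of glucose uptake, glycolysis and lactate handling 22 were tested, 19 were higher, 2 lower and 1 did not pass. The share higher was 86.4%, beside 31.9% of all tested genes. The median was 0.96 against 1.79 for hypoxia without oxamate. LDHA (chr11:18394388-18408425, + strand), a main target of oxamate, stood at 1331 and 1323 CPM in normoxia, 5658 and 5656 in hypoxia and 2624 and 2611 with oxamate, 1.97-fold above normoxia (log2 0.98 ± 0.03, adjusted p = 7.4e-19). LDHB, the subunit that prevails in tissues using lactate, stood at 955 and 959, 877 and 890.0 and 2239.9 and 2199.7 CPM (1.21 ± 0.03). For LDHA the treated libraries lay between the other groups, and for LDHB they lay above both. HK2, the hexokinase of tumour cells, had 78.7 and 78.7 CPM in normoxia, 904 and 907 in hypoxia and 336 and 340.0 with oxamate (2.10 ± 0.03). The glucose transporter SLC2A1 had 198 and 203, 687 and 674 and 560.1 and 552 CPM (1.47 ± 0.03, adjusted p = 5.3e-20), and SLC2A3 had 27.2 and 26.9, 1491 and 1467 and 98.2 and 91.8 (1.81 ± 0.04). ALDOA (1.54 ± 0.03), GAPDH (1.38 ± 0.03), ENO1 (1.04 ± 0.02), TPI1 (1.01 ± 0.03), PGK1 (0.58 ± 0.03) and PKM (0.59 ± 0.02), enzymes of the middle and lower pathway, were all higher. PGAM1 was higher within 1.5-fold (0.29 ± 0.03), a sign that turned with library totals alone (-0.10), and ENO2 (0.92 ± 0.06) kept little of its hypoxic level, with 14.3 and 15.1 CPM in normoxia, 411 and 401 in hypoxia and 28.8 and 26.9 with oxamate.

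The 2 genes that were lower carry lactate across the cell membrane. SLC16A3 (MCT4), the exporter of glycolytic cells, had 50.03 and 52.1 CPM in normoxia, 300.3 and 295 in hypoxia and 18.7 and 20.5 with oxamate (-1.38 ± 0.06). SLC16A1 (MCT1) had 213 and 211, 203 and 207 and 85.4 and 86.8 CPM (-1.300 ± 0.03). SLC16A3 had been raised in hypoxia and SLC16A1 had not, and both lay below normoxia with oxamate. The listed carrier SLC16A7 was at or near 0 in every library.

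The respiratory chain split by genome of origin. Of 58 tested nuclear genes for subunits of the chain and ATP synthase, 55 were higher and 2 lower (94.8 and 3.45%). Of all tested genes 31.9 and 40.1% were higher and lower. The median of the nuclear list was 0.94 against 0.15 for hypoxia without oxamate. ATP5F1B, the catalytic subunit of ATP synthase, rose from 842 and 856 CPM in normoxia to 1896 and 1903 with oxamate (1.16 ± 0.03). COX6A1, a subunit of cytochrome oxidase, rose from 173 and 181 to 461 and 455 CPM (1.37 ± 0.04). The 2 lower genes were CYCS, the electron carrier cytochrome c (-1.25 ± 0.04), and the complex I subunit NDUFC2 (-1.22 ± 0.06). Of 31 tested genes of pyruvate dehydrogenase and the TCA cycle 24 were higher and 3 lower (77.4 and 9.68%, median 0.53). Among those higher were MDH2 (1.14 ± 0.03) and SDHB (1.14 ± 0.04), 2 enzymes of the cycle. The 3 lower genes were regulators: the phosphatases PDP1 (-1.89 ± 0.05) and PDP2 (-1.36 ± 0.09), which activate pyruvate dehydrogenase, and the kinase PDK3 (-1.87 ± 0.11), which inactivates it, while the kinase PDK1 was higher (1.44 ± 0.05).

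None of the 13 protein-coding genes of the mitochondrial chromosome was higher and 12 were lower (92.3%, beside 40.1% of all tested genes). Their median was -2.67 against -1.56 for hypoxia without oxamate. MT-ATP8, an ATP synthase subunit, stood at 608 and 593 CPM in normoxia, 114 and 109.6 in hypoxia and 11.2 and 9.59 with oxamate (-5.85 ± 0.05), and 22.2% of its bases overlap MT-ATP6. MT-ATP6 went from 3830.4 and 3792 CPM in normoxia to 909.5 and 865 in hypoxia and 171 and 178 with oxamate (-4.45 ± 0.04). Its pseudogene on chromosome 1, MTATP6P1, had 539 and 534, 132 and 122 and 28.3 and 30.5 CPM (-4.19 ± 0.05). How reads were split between these 2 genes is uncertain. MT-CO3 (-3.54 ± 0.03), MT-ND3 (-3.89 ± 0.04) and MT-ND1 (-3.36 ± 0.04) followed, and their treated libraries lay under both other groups. The difference was uneven along the chromosome. MT-CO1 (-1.29 ± 0.03), MT-CO2 (-1.12 ± 0.03), MT-ND5 (-0.95 ± 0.03) and MT-ND6 (-0.86 ± 0.03) were lower by less, and in hypoxia without oxamate they differed from normoxia by 0.08, -0.10, -0.15 and 0.42. MT-ND4 had 6289 and 6329.6 CPM in normoxia and 6328 and 6319 with oxamate, a difference of 0.00 ± 0.03 that ranged from -0.39 to 0.10 under the alternatives and passed under 7 of 12, as higher without either oxamate replicate and with DESeq2. The ribosomal RNAs MT-RNR1 (1.94 ± 0.03) and MT-RNR2 (0.80 ± 0.03), which lie first along the chromosome, were higher. Libraries were made from poly(A)-selected RNA, so the values count polyadenylated or captured transcripts.

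**Figure D3:**
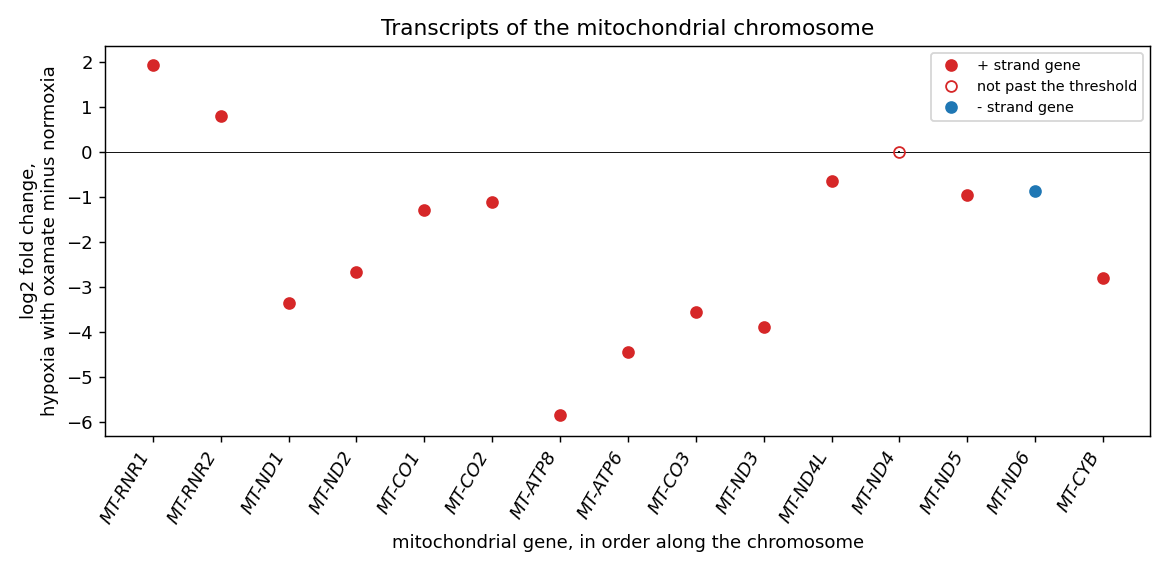
Log2 fold change of hypoxia with oxamate over normoxia (y axis) for 15 genes of the mitochondrial chromosome in their order along it (x axis), with SE bars that are mostly smaller than the points. Values run from -5.85 at MT-ATP8 to 1.94 at MT-RNR1, and MT-ND4 sits at 0.

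Metallothioneins stood farther above normoxia, by their median, than the other lists plotted. All 6 tested members of 11 listed genes were higher (31.9% of all tested genes were), with a median of 3.95 against 2.01 for hypoxia without oxamate. With the 2 groups alone or the stricter count filter 5 were tested, all higher, with a median of 3.68. Metallothioneins bind zinc and copper, SLC30A1 exports zinc, and both are known targets of the zinc sensor MTF1. MT1X stood at 6.58 and 7.68 CPM in normoxia, 37.7 and 39.0 in hypoxia and 473 and 476 with oxamate, 66.1-fold above normoxia (log2 6.05 ± 0.05, adjusted p = 3.3e-27). MT2A stood at 259 and 275, 530.3 and 493 and 2046 and 2000.0 CPM (2.92 ± 0.04), and MT1E at 47.4 and 51.8, 178 and 168 and 598 and 608 (3.60 ± 0.04). The treated libraries were the highest in each, with no overlap. SLC30A1 had 7.81 and 7.30 CPM in normoxia, 9.77 and 9.78 in hypoxia and 77.7 and 78.7 with oxamate (3.37 ± 0.06), so hypoxia alone had left it within 1.5-fold. MT1F was higher too (4.29 ± 0.09). MT1B had 0 counts in both normoxia libraries and under 1 CPM with oxamate, so it could pass only as higher. MT1G had 7 and 5 counts with oxamate and 0 in normoxia, too few for the test. Metallothionein transcripts are nearly alike, so how reads were split among the MT1 genes and MT2A is uncertain.

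Promoters of 3 of these genes are shown because the treated libraries of each lay above both other groups. The windows are the 250 bases before the RefSeq start on GRCh38.p14, and capitals mark TGCACNC or TGCGCNC on either strand, the core of the metal-responsive element.
MT1X (chr16:56682220-56682469, + strand): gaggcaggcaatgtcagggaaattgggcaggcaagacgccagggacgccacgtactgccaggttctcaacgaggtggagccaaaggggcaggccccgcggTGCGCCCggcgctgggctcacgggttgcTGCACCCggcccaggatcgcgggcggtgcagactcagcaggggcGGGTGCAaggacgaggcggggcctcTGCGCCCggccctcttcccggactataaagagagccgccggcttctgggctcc
MT2A (chr16:56608334-56608583, + strand): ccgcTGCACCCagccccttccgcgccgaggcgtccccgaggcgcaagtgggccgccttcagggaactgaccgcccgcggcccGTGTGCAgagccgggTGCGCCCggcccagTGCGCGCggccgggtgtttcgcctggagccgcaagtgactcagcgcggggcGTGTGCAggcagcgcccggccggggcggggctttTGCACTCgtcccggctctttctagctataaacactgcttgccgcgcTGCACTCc
SLC30A1 (chr1:211579162-211579411, - strand): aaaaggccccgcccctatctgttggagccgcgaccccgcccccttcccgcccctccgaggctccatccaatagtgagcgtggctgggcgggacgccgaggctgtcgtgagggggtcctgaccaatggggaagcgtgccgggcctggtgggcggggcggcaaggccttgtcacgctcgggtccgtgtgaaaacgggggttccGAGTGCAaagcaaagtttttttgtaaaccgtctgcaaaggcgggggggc
MT2A held 7 matches, MT1X held 4 and SLC30A1 held 1. Of all 35116 windows 24.8% held at least 1 match and 0.37% at least 4, and of the 15221 windows of tested genes 31.3% and 0.473%. Promoters were available for 4 tested members of the list, and each had a match in any of its windows, a count by gene and not by window.

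Stress and immediate-early genes parted into a group far above normoxia and a group far below it. Of 32 tested genes of AP-1, immediate-early and MAPK feedback function 13 were higher and 16 lower, 11 and 13 of them by at least 2-fold. Of all tested genes 31.9 and 40.1% were higher and lower, and 7.32 and 20.2% by at least 2-fold. GADD45A (chr1:67685061-67688338, + strand), a growth arrest and stress kinase adaptor, stood at 21.99 and 20.7 CPM in normoxia, 26.9 and 27.2 in hypoxia and 712 and 689 with oxamate (5.04 ± 0.04, adjusted p = 2.7e-27). ATF3, a stress transcription factor, stood at 27.9 and 27.0, 82.4 and 85.8 and 589 and 604 CPM (4.44 ± 0.04). PPP1R15A, which restores translation after eIF2α phosphorylation, stood at 76.97 and 74.7, 154 and 150.4 and 653 and 650.0 CPM (3.10 ± 0.03). All 3 were highest with oxamate, and hypoxia alone had left GADD45A within 1.5-fold of normoxia. JUN (2.68 ± 0.05), KLF6 (2.73 ± 0.04), and the phosphatases DUSP8 (3.48 ± 0.23) and DUSP10 (2.64 ± 0.04), which act on JNK and p38, were also higher. Other genes of the list were lower. DUSP6, the ERK phosphatase, had 4.91 and 4.17 CPM in normoxia, 1.22 and 1.87 in hypoxia and 0.0387 and 0.0809 with oxamate, where 3 counts in all remained, 76-fold lower with a 95% counting interval of 25.7 to 371. JUNB (-2.58 ± 0.08), IER2 (-2.66 ± 0.09), IER5 (-2.82 ± 0.09), EGR1 (-2.57 ± 0.15), FOS (-2.001 ± 0.31) and SPRY2 (-2.71 ± 0.19) were lower by at least 2-fold, with treated libraries under both normoxia libraries. FOSL1 had 195 and 189.6 CPM in normoxia, 68.3 and 67.0 in hypoxia and 191 and 187 with oxamate, close to normoxia, and MYC was higher (0.75 ± 0.06).

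**Figure D4:**
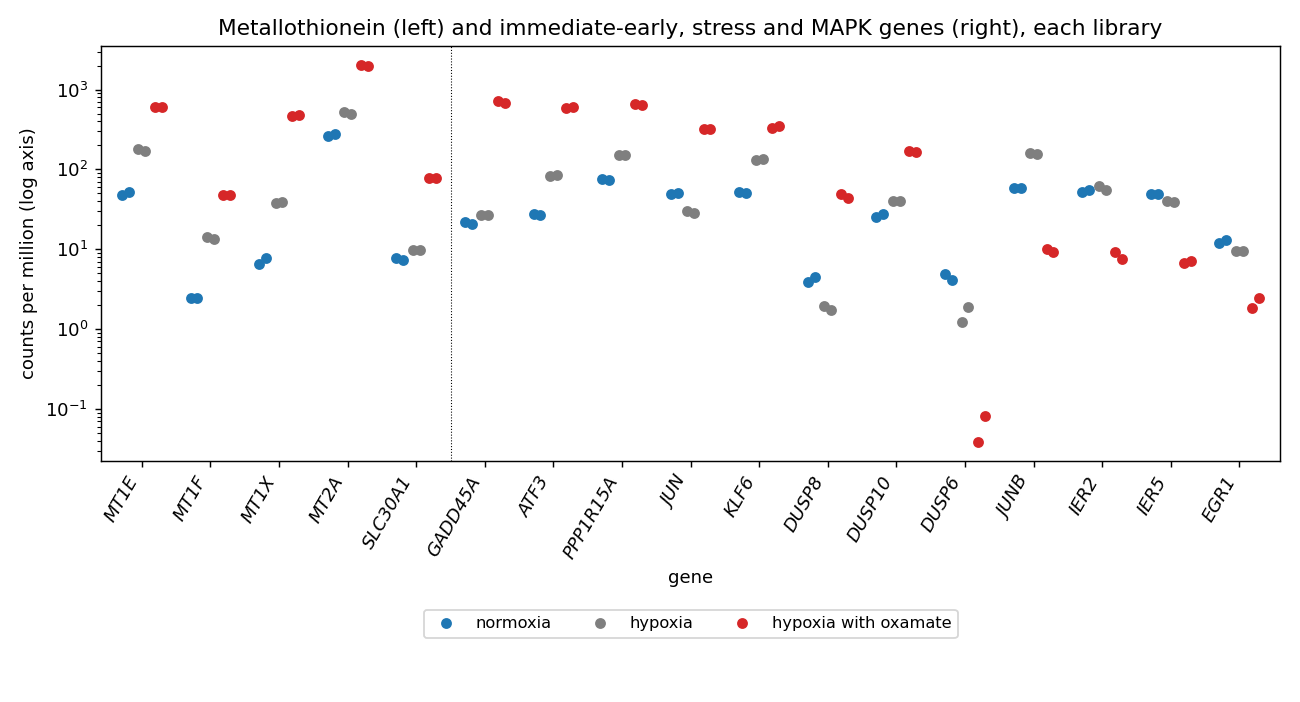
CPM on a log axis for 4 metallothioneins with SLC30A1 and for 12 stress, immediate-early and MAPK genes (x axis), 2 libraries per group. Treated libraries are the highest for MT1E through DUSP10 and the lowest for DUSP6 through EGR1.

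Targets of p53 were mostly lower, and targets of ATF4 lay on both sides of normoxia. Of 25 tested p53 targets 6 were higher and 18 lower, with a median of -0.52 against 0.35 for hypoxia without oxamate. The shares were 24 and 72%, beside 31.9 and 40.1% of all tested genes. MDM2, the ligase that degrades p53, had 103 and 104 CPM in normoxia and 45.8 and 41.4 with oxamate (-1.25 ± 0.05). SESN1 (-2.35 ± 0.15), BTG2 (-3.77 ± 0.26), FAS (-1.72 ± 0.13) and POLH (-1.83 ± 0.12) were lower by more, and the CDK inhibitor CDKN1A went from 8.30 and 9.10 CPM in normoxia to 6.50 and 5.62 (-0.52 ± 0.11). GADD45A, described above, belongs to this list too and had its largest increase (5.04 ± 0.04). GDF15 (2.46 ± 0.16), BAX (0.67 ± 0.05) and PMAIP1 (0.95 ± 0.11) were also higher. TP53INP1 was at 0 in both treated libraries and had 12 counts in normoxia, at least 1.73-fold lower against 3 counts per library. Its place among the lower members rests on few counts, and its difference of -5.45 moved to -4.03 without normoxia replicate 2. The median of the p53 list ran from -0.91 with library totals alone to -0.366 without oxamate replicate 2. Of 27 tested genes of the ATF4 amino acid response 11 were higher and 15 lower (40.7 and 55.6%). The amino acid transporter SLC7A5 had 2455 and 2461 CPM in normoxia, 2479 and 2434 in hypoxia and 1043 and 1019 with oxamate (-1.25 ± 0.03), while its partner SLC3A2 rose from 779.9 and 798 to 1602 and 1572 (1.01 ± 0.03). TRIB3 (-1.96 ± 0.09), CEBPG (-1.44 ± 0.07) and the cystine transporter SLC7A11 (-1.81 ± 0.15) were lower. ATF3 (4.44 ± 0.04) and PPP1R15A (3.10 ± 0.03), described above, belong to the ATF4 list and were higher. ATF4 itself was higher too (0.95 ± 0.03). CHAC1 was at 0 in both treated libraries and at 0.893 and 1.07 CPM in normoxia, at least 8.35-fold lower against 3 counts per library.

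Several lists whose median lay below normoxia in hypoxia without oxamate stood at or above normoxia with oxamate. Shares higher and lower were 87.1 and 9.68% for the proteasome, 98 and 0% for ribosomal proteins and 45 and 42.5% for ribosome biogenesis. Of all tested genes 31.9 and 40.1% were higher and lower, so the share lower of ribosome biogenesis was near that of all genes. Of 31 tested proteasome genes 27 were higher and 3 lower, with a median of 0.70 against -0.50 for hypoxia without oxamate. The core subunit PSMA7 had 237 and 239 CPM in normoxia, 179.6 and 178 in hypoxia and 499 and 506 with oxamate (1.08 ± 0.03). PSMD12, a lid subunit, went the other way (-1.44 ± 0.05). Cytosolic ribosomal proteins, already above normoxia in hypoxia without oxamate (median 0.43), gave 50 higher and none lower of 51 tested with oxamate (median 1.35), such as RPL3 with 1133 and 1136 CPM in normoxia, 2378 and 2393 in hypoxia and 3207 and 3247 with oxamate (1.51 ± 0.03). Of 40 tested ribosome biogenesis genes 18 were higher, 17 lower and 17 close to normoxia, and their median was -0.01 against -1.86 for hypoxia without oxamate. The assembly factor NOB1 was higher (1.38 ± 0.03), while RRS1, needed for the large subunit, had 119 and 115 CPM in normoxia, 7.80 and 8.10 in hypoxia and 30.7 and 32.6 with oxamate (-1.89 ± 0.05). Heat shock genes were divided, 11 higher and 11 lower of 23 (47.8% each), beside 31.9 and 40.1% of all tested genes. Their median was 0.04 against -0.96 for hypoxia without oxamate. HSP90AB1, the constitutive HSP90, had 1916 and 1869, 1021 and 1031 and 3766 and 3831 CPM (1.005 ± 0.03), and HSPD1, the mitochondrial chaperonin, was higher too (0.88 ± 0.03). The inducible HSPA1A (-1.53 ± 0.07) and HSPA1B (-1.03 ± 0.04), which are near copies of each other, and the cochaperone DNAJA1 (-1.22 ± 0.04) were lower. Over the alternatives the median of the heat shock list ran from -0.35 to 0.14 and that of ribosome biogenesis from -0.395 to 0.11, both lowest with library totals alone.

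Cell cycle genes were mixed. Of 44 tested DNA replication genes 22 were higher and 17 lower, with a median of 0.08 against -0.88 for hypoxia without oxamate. The share lower, 38.6%, was near the 40.1% of all tested genes, and the share higher was 50% against 31.9%. The helicase subunits MCM4 (0.77 ± 0.03) and MCM7 (0.66 ± 0.03) were higher. The S-phase cyclin CCNE2 had 30.5 and 30.2 CPM in normoxia, 5.23 and 5.46 in hypoxia and 1.82 and 2.27 with oxamate (-3.89 ± 0.13), and 37% of its exon bases overlap INTS8 on the other strand. GINS1 (-2.60 ± 0.07), the flap nuclease FEN1 (-1.52 ± 0.04) and the clamp PCNA (-1.01 ± 0.04) were lower too. Of 34 tested genes of G2 and mitosis 18 were higher, 11 lower and 19 close to normoxia (median 0.13). The shares higher and lower were 52.9 and 32.4%. The spindle factor TPX2 was higher (0.88 ± 0.03). Its partner kinase AURKA was lower, at 176 and 173 CPM in normoxia and 54.5 and 47.8 with oxamate (-1.77 ± 0.05). Of 15 tested G1 genes 4 were higher and 9 lower (26.7 and 60%, median -0.60). CCND1 had 326 and 321 CPM in normoxia, 49.4 and 52.7 in hypoxia and 149.7 and 142 with oxamate (-1.15 ± 0.05), and CCND2 had 378 and 375, 312 and 301 and 132 and 129 (-1.53 ± 0.03). Over the alternatives the medians of the replication and mitosis lists ran from -0.30 to 0.18 and from -0.26 to 0.24, both lowest with library totals alone.

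Surface immune genes moved in both directions. Of 20 listed genes 14 were tested, 7 were higher and 5 lower, and 4 were close to normoxia. The shares of 50% higher and 35.7% lower stand beside 31.9 and 40.1% of all tested genes. CD274 (chr9:5450503-5470566, + strand) stood at 20.2 and 19.98 CPM in normoxia, 14.4 and 14.3 in hypoxia and 40.3 and 44.1 with oxamate (1.07 ± 0.07, adjusted p = 1.6e-12), so the treated libraries were above both groups. HLA-E, a ligand of inhibitory NK receptors (1.03 ± 0.03), and the lectin LGALS3 (0.95 ± 0.04) were higher. The ectonucleotidase ENTPD1 (CD39) had 17.1 and 16.9 CPM in normoxia and 2.09 and 1.78 with oxamate (-3.13 ± 0.14). CMTM4, which protects PD-L1 from degradation (-1.03 ± 0.05), CD276 (-0.50 ± 0.05) and the signal against phagocytosis CD47 (-0.49 ± 0.05) were lower. PVR was higher within 1.5-fold (0.27 ± 0.04), a sign that turned with library totals alone (-0.11). Of 20 tested genes of MHC class I presentation 13 were higher and 3 lower (65 and 15%, median 0.52). B2M, the common light chain, led the increases (1.23 ± 0.04), while the peptide transporter TAP1 was lower (-0.49 ± 0.08). Interferon-stimulated genes gave 6 higher and 7 lower of 23 (26.1 and 30.4%), both shares below those of all tested genes. ISG15 was higher (1.32 ± 0.07) and IFIT5 lower (-2.72 ± 0.13).

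Of 20 tested squamous genes 11 were higher and 5 lower (median 0.46). The shares were 55 and 25%, beside 31.9 and 40.1% of all tested genes. With library totals alone 9 were higher and 7 lower (median 0.073), and without oxamate replicate 1 or normoxia replicate 1 lower members numbered 3. The basal keratin KRT5 had 1678 and 1677 CPM in normoxia, 973 and 970.3 in hypoxia and 3489 and 3489 with oxamate (1.06 ± 0.02), and KRT14 (1.28 ± 0.07) and KRT17 (1.304 ± 0.03) were higher too. TP63, the basal squamous regulator, had 128 and 122, 245 and 247 and 80.9 and 78.9 CPM (-0.64 ± 0.04), so the keratins and TP63 lay on opposite sides of normoxia. Of 25 tested genes of matrix and invasion 15 were higher and 6 lower (60 and 24%, median 0.53). With library totals alone 9 were higher and 9 lower (median 0.137), and without oxamate replicate 2 the median was 0.326. FN1 (fibronectin, 1.47 ± 0.04), the matricellular CCN1 (1.22 ± 0.03) and MMP3 (2.75 ± 0.17) were higher, and the matrix protein THBS1 had 1443 and 1427 CPM in normoxia, 416 and 415 in hypoxia and 467 and 469.8 with oxamate (-1.62 ± 0.03).

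The largest increases and decreases included genes that hypoxia alone had left within 1.5-fold of normoxia. Among increases at a mean log2 CPM of at least 1, besides genes described above, were the clock gene PER1, with 2.68 and 2.97 CPM in normoxia, 86.4 and 79.5 in hypoxia and 50.6 and 53.5 with oxamate (4.20 ± 0.09), and TNFAIP3 (A20), which limits NF-kB, with 7.81 and 6.64, 20.4 and 19.0 and 80.3 and 80.7 CPM (3.48 ± 0.07). F8A2 had 0 counts in normoxia and 303 with oxamate, at least 58.5-fold higher against 3 counts per library. Lacking any normoxia counts, this gene could pass only as higher. F8A2 has near-identical copies, so its counts are uncertain. Of the genes within 1.5-fold of normoxia in hypoxia, ING1 (1.60 ± 0.06) and the host gene SNHG6 (1.59 ± 0.05) were higher with oxamate. In hypoxia without oxamate both were called higher, by 0.35 and 0.15.

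Large decreases of nuclear genes at the same minimum level included PARS2 (chr1:54756898-54764514, - strand), the mitochondrial prolyl-tRNA synthetase, with 11.5 and 10.1 CPM in normoxia, 6.31 and 5.91 in hypoxia and 0.348 and 0.162 with oxamate. Its counts were 627 in normoxia and 13 with oxamate, 41.7-fold lower with a counting interval of 24.2 to 78.7. NANOS1 (-5.05 ± 0.32) and BCDIN3D (-4.95 ± 0.34), an RNA methyltransferase, were lower too. ETAA1, an activator of the ATR kinase, stood at 30.5 and 28.3 CPM in normoxia, 36.0 and 35.8 in hypoxia and 1.86 and 0.89 with oxamate (-4.40 ± 0.15). PPP1R10, a nuclear phosphatase subunit, stood at 80.4 and 81.9, 23.9 and 23.8 and 4.41 and 3.44 CPM (-4.36 ± 0.08). B4GAT1 (-4.33 ± 0.16), MED18 (-4.02 ± 0.20) and the Notch regulator NRARP (-3.76 ± 0.12) were lower with oxamate. In hypoxia without oxamate they were called lower within 1.5-fold of normoxia (-0.22, -0.29 and -0.33). Among genes that hypoxia lowered by at least 4-fold, those farthest below normoxia with oxamate included MOCS3, with 32.6 and 32.7 CPM in normoxia, 7.97 and 6.69 in hypoxia and 1.78 and 1.70 with oxamate (-4.22 ± 0.13), and MAT2A, which makes S-adenosylmethionine, with 233 and 238, 47.3 and 53.1 and 18.7 and 18.9 CPM (-3.65 ± 0.05). Those farthest above included CREB5 (2.21 ± 0.15), ZNF593 (1.21 ± 0.07), the helicase DDX39A, with 149 and 144 CPM in normoxia, 36.3 and 36.8 in hypoxia and 299 and 295 with oxamate (1.02 ± 0.03), and BRMS1 (0.98 ± 0.04).

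Genes apart from normoxia differed by transcript length, a property the comparison did not use. Among 12368 protein-coding genes, those whose longest transcript in GENCODE 29 is at most 1500 bases (1041 genes) were at least 2-fold higher in 23.6% and at least 2-fold lower in 5.67%. Among the 1278 genes with a longest transcript over 7500 bases the shares were 1.8 and 22.1%. The median difference went from 0.61 in the shortest to -0.41 in the longest class, while for hypoxia without oxamate the medians of these classes were 0.05 and 0.06. Genes of a like level kept this order: between a mean log2 CPM of 4 and 6, the median was 0.61 for up to 1500 bases (308 genes) and -0.43 for over 5000 (1558 genes). A longest transcript of at most 1500 bases was annotated for 27 of the 58 nuclear respiratory genes and 17 of the 51 ribosomal protein genes. Between a mean log2 CPM of 6 and 8, 91.4% of 209 genes of up to 1500 bases were higher (median 0.84). Of 483 genes over 1500 and up to 2500 bases at that level, 80.7% were higher (median 0.63). The nuclear respiratory list had 94.8% higher, so its share was near that of short genes at this level. Of 432 protein-coding genes whose longest transcript has 1 exon, 42.8% were at least 2-fold lower and 9.26% at least 2-fold higher. These shares were 18 and 6.56% among all protein-coding genes, and 30.4 and 2.63% among those at a mean log2 CPM of 2 to 4. These shares are descriptions, with no test.

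**Figure D5:**
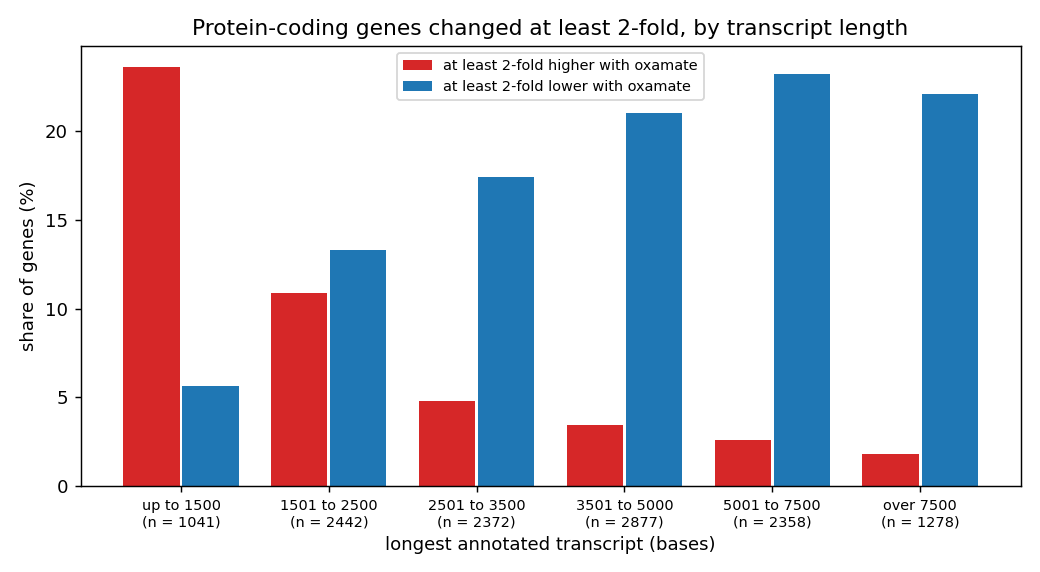
Share of protein-coding genes that were at least 2-fold higher or lower with oxamate than in normoxia (y axis, percent) in 6 classes of longest annotated transcript (x axis, number of genes in brackets). The share higher goes from 23.6% in the shortest class to 1.8% in the longest, and the share lower from 5.67 to 22.1%.

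Zinc finger genes, a group chosen after their values were seen, were mostly lower. Of 433 tested genes with a ZNF, ZFP, ZKSCAN or ZSCAN symbol, which largely encode repressors of transcription, 308 were lower and 61 higher. At least 2-fold lower were 212 (49%), against 20.2% of all tested genes and 30.4% of protein-coding genes at a mean log2 CPM of 2 to 4, where most of these genes lie. The median was -1.0, and -0.10 for hypoxia without oxamate. ZNF658 had 12.2 and 11.7 CPM in normoxia, 6.68 and 6.12 in hypoxia and 0.426 and 0.526 with oxamate (-4.64 ± 0.20), and ZNF791 had 23.7 and 23.5, 24.5 and 25.3 and 2.05 and 1.70 (-3.65 ± 0.12).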

How the data were processed

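Poly(A)-selected RNA of 8 KYSE150 libraries was compared, 2 in each of 4 groups. The authors deposited 1 table of raw counts per gene, whole numbers without normalization. The submitters' processing notes name RSEM 1.3.3, STAR 2.7.8a and FastQC 0.11.9, and hg38 and GRCh38 as builds, with no role. For strandedness, read trimming and the annotation release nothing is given in the sources used here, and multi-copy genes may have been counted in shares.

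The analysis ran in edgeR 4.0.16 with limma 3.58.1 under R 4.3.3. Of 61517 listed genes, 46 second copies of pseudoautosomal genes were dropped, and filterByExpr with a minimum count of 10 kept 15554. Composition scaling was by TMM, whose factor was 1.15 for each normoxia library and 0.879 for each oxamate library. All 8 libraries entered one robust quasi-likelihood fit with 4 residual degrees of freedom, and the Benjamini-Hochberg adjustment covered every tested gene. The SE was derived from the F statistic, and 95% intervals used the t quantile. Log2 CPM for distances used a prior count of 2. Ratios of few counts carry 95% Clopper-Pearson intervals, which, like the floors, cover counting error alone. Transcript features came from GENCODE 29, which matched 98% of tested genes, and promoters from RefSeq on GRCh38.p14.

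The members and lists were chosen with earlier results of these data known. Named genes were 9 set genes, the largest changes overall and by behaviour in hypoxia, up to 4 and 3 members per list by p, and any member of 5 lists on hypoxia, glycolysis, oxygen sensing, immune surface and p53. ATF4, CHAC1, DUSP6, DUSP8, DUSP10, FOS, FOSL1, HSPA1A, JUN, KRT14, MT1B, MT2A, MYC, PCNA, SPRY2, most mitochondrial genes, the zinc finger group and the transcript length classes fall outside this rule and were chosen after their values were seen. Alternatives were 3 other scalings, 2 other count filters, DESeq2 1.42.0, a replicate block, the 2 groups alone and leaving out each replicate.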

Additional observations from a re-analysis of the deposited data

How the results depend on the processing

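With library totals alone, added after the data were seen, 2838 genes were higher in place of 4957 and 362 in place of 1138 were at least 2-fold higher. Lower calls made up 75.5%, against 55.7% as reported and 50.1% with the stricter count filter. Signs turned for BNIP3L (-0.041), CA9 (-0.054), EGFR (-0.35), EGLN1 (-0.30), EPAS1 (-0.31), MT-ND4 (-0.39), PGAM1 (-0.10) and PVR (-0.11). Higher members then numbered 9 for ER chaperones, 10 for G2 and mitosis, 7 for histones (7 also with the stricter filter), 6 for fatty acid genes, 4 for surface immune genes, 4 for the NF-kB response, 9 for invasion, 13 for autophagy and 4 for acyltransferases and deacetylases, and 12 interferon-stimulated genes were lower. Lower members numbered 28 for DNA replication, 19 for G2 and mitosis, 10 for the TCA list and for autophagy, and 7 for the proteasome and for MHC class I. The median over tested genes moved by 0.131 without a filter and 0.129 with the stricter one, where other sets of genes are tested. With the 2 compared groups alone 14468 genes were tested, 5442 higher and 5738 lower, with a median of -0.0378.

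Leaving out 1 replicate gave 4501 to 5212 genes higher and 5218 to 5869 lower, 1023 to 1469 and 2685 to 3056 by at least 2-fold, and 3665 to 3803 close to normoxia. Replicate numbers did not pair libraries, since deviations of same-numbered libraries correlated at -0.0502 to 0.0118. With the replicate as a block 4922 genes were higher and 6183 lower, and no named gene's call changed. Levels under about 0.1 CPM rest on 3 or fewer counts.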

Other observations

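Antioxidant genes and genes of lysosomes and protein folding in the ER had more members above normoxia than below it. Shares higher and lower were 62.5 and 12.5% for the antioxidant list and 76.9 and 15.4% for autophagy and lysosomes. They were 65.2 and 30.4% for ER chaperones, beside 31.9 and 40.1% of all tested genes. Of 24 tested NRF2 targets and pentose phosphate genes 15 were higher and 3 lower with oxamate (median 0.22, with values from -0.17 with library totals alone to 0.53 without oxamate replicate 1 and 0.78 with the stricter count filter). The transketolase TKT had 796 and 802 CPM in normoxia, 1177 and 1173 in hypoxia and 2129 and 2152 with oxamate (1.42 ± 0.03), and the quinone reductase NQO1 had 359 and 360.3, 259 and 257 and 731 and 715 (1.01 ± 0.03). For both genes the treated libraries were the highest. The ferritin light chain FTL was as high with oxamate (786 and 750.3 CPM) as in hypoxia (805 and 778), above 321 and 325 in normoxia. Of 26 tested autophagy and lysosome genes 20 were higher and 4 lower (median 0.50), and 2 were lower without oxamate replicate 2. The lysosomal membrane protein LAMP1 was higher (0.96 ± 0.03), and the autophagy kinase ULK1, at 176 and 176 CPM in hypoxia, had 9.79 and 10.48 with oxamate and 14.7 and 15.8 in normoxia (-0.59 ± 0.08). Of 23 tested ER chaperone and unfolded protein response genes 15 were higher and 7 lower (median 0.35), and with library totals alone 9 were higher and 10 lower (median -0.03). The chaperones PDIA3 (0.86 ± 0.03) and HSP90B1 (0.81 ± 0.03) were higher, while the transcription factor XBP1 was lower (-1.08 ± 0.06).

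Lipid and chromatin lists had members on both sides of normoxia. Shares higher and lower were 47.6 and 38.1% for fatty acid genes and 15.8 and 57.9% for JmjC demethylases. They were 42.3 and 38.5% for acyltransferases and deacetylases, 61.1 and 22.2% for histones and 38.9% each for the NF-kB response. The shares lower of the fatty acid, acyltransferase and NF-kB lists were near the 40.1% of all tested genes. Of 21 tested cholesterol genes 9 were higher and 10 lower (42.9 and 47.6%, beside 31.9 and 40.1% of all tested genes). The median of -0.19 turned to 0.0385 and 0.0759 without oxamate replicate 1 or 2. The synthesis enzymes HMGCS1 (-1.06 ± 0.06) and SQLE (-1.12 ± 0.06) were lower, and FDFT1, which makes squalene, was higher (0.94 ± 0.04). Of 21 tested fatty acid and lipid droplet genes 10 were higher and 8 lower (5 without oxamate replicate 1), with the elongase ELOVL6 at 75.3 and 73.1 CPM in normoxia, 41.3 and 42.7 in hypoxia and 14.9 and 15.7 with oxamate (-2.28 ± 0.06). Of 19 tested JmjC demethylases, which need oxygen to act, 3 were higher and 11 lower, and their median was -0.18 (-0.0387 without oxamate replicate 1) against 0.51 for hypoxia without oxamate. KDM6B, which removes H3K27 methylation, had 29.6 and 29.9 CPM in normoxia, 91.4 and 89.4 in hypoxia and 14.9 and 13.8 with oxamate (-1.06 ± 0.08). Acyltransferases and deacetylases gave 11 higher and 10 lower of 26 tested (6 lower without oxamate replicate 2 or with DESeq2), with HDAC1 (-0.95 ± 0.04) and HDAC2 (-1.03 ± 0.05) lower and KAT5 (TIP60) higher (1.11 ± 0.05). Of 18 tested histone genes 11 were higher and 4 lower (median 1.36 against 2.23 for hypoxia without oxamate). The stricter count filter left 11 of them, 7 higher and 2 lower, with a median of 0.312, and 2 were lower without oxamate replicate 1. The linker histone H1-2 was higher (1.34 ± 0.06). Histone genes are near copies of each other, so the split of their reads is uncertain. NF-kB response genes gave 7 higher and 7 lower of 18 tested, with PTGS2 higher (1.52 ± 0.24) and IL1A lower (-1.98 ± 0.19).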
